A study of Mus musculus with 6 samples.

Results

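The semaphorin, ephrin, Slit and netrin families supply the classical guidance cues, together with the plexin, Eph, Robo and UNC5 receptors that read them. A total of 61 genes of these families were measured in mouse ear skin, of 18422 genes in the table. They were taken by name, with the condition of 10 or more counts in at least 3 of the 6 libraries. Another 6 genes of the same families did not reach that count, namely Dcc, Epha5, Epha6, Epha8, Robo3 and Unc5d. The closest gene outside was Epha6, with at most 9 counts in a library, and the closest inside was Epha10, with 8 to 26. All 61 passed the separate filter of the test, which kept 14866 genes.

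The RNA came from ear skin at postnatal day 21, in 3 libraries of Vegfr2 endothelial knockouts (ecko) and 3 of littermate controls, and tamoxifen was given in both groups. Vegfr2 is another name of Kdr, the gene of the main VEGF-A receptor on endothelial cells. The series gives tamoxifen schedules that start at postnatal day 1 or day 10, and the one used for these mice, the Cre driver, the strain and the deleted exon are not given in the sources used here. Libraries held 17255419 to 18054700 counts, of which the guidance genes took between 0.282% and 0.306%. Levels are given as CPM, the count of a gene scaled to the TMM-corrected library total. Kdr stood at 27.4, 29.1 and 33.7 CPM across controls against 3.36, 2.05 and 2.35 CPM across ecko, low in each library labelled ecko. Skin markers were present, with summed levels of the 7 basal keratinocyte markers between 9809 and 11187 CPM and of the 8 fibroblast markers between 15503 and 19962 CPM over all libraries. The third library of each group was taken as female and the others as male, by Y-linked reads. The labels do not tie libraries to named animals, so p-values measure the spread between these libraries.

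Guidance cues were first described as attractants and repellents of growing axons, and many of them also steer sprouting vessels. Semaphorins act mainly through plexins, ephrins through Eph receptors on neighbouring cells, Slits through Robo receptors, and netrins through DCC and UNC5 receptors. In vessels, EFNB2 marks arteries and EPHB4 veins, SEMA3E repels endothelial cells through PLXND1, ROBO4 is the Robo receptor typical of endothelium, and UNC5B restrains sprouting. In skin the same families also act between keratinocytes, in hair follicles, and along sensory nerves.

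Most guidance genes differed little from their control level in ecko skin, though a smaller share of them did so than of all genes. Of the 61, 3 (4.92%) passed the test over all genes. Robo4 and Sema7a fell and Slit2 rose (threshold of 0.05 on the Benjamini-Hochberg value from edgeR over all 14866 genes). Over all genes tested, 1.76% passed in either direction, 0.686% as higher and 1.08% as lower. The median log2 fold change (ecko minus control) of the 61 members was 0.00, against -0.00 over all genes tested. Of the members, 32 lay above 0 and 29 below, and 47 lay within 0.25 log2 units of 0, a share of 77.0% against 82.5% over all genes. Before adjustment, 17 members (27.9%) were under 0.05 in edgeR, 8 of them higher and 9 lower, where 15.4% of all genes were, 7.41% higher and 7.95% lower. Libraries of the groups were fully separated for 19 members (31.1%), 8 higher and 11 lower, against 21% of all genes tested, 10.2% higher and 10.8% lower.

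**Figure D1:**
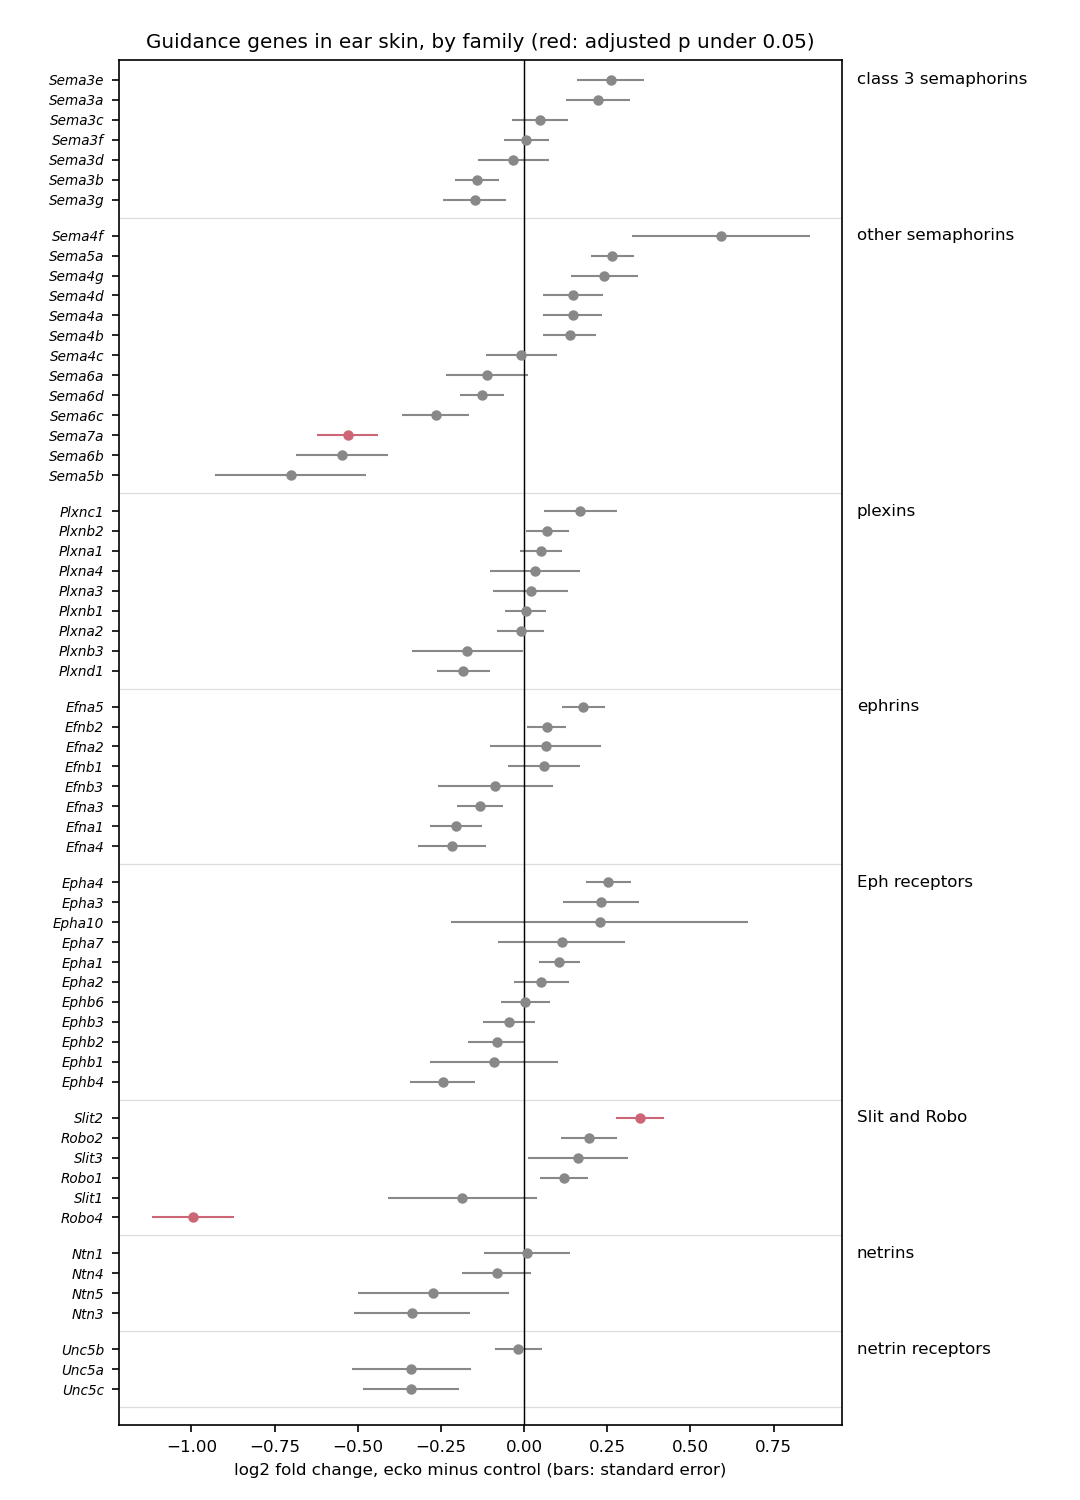
Log2 fold change (ecko minus control, horizontal axis) of the 61 guidance genes, grouped by family, with bars for the standard error and red points for genes with an adjusted p under 0.05. Robo4 lies at -0.996, Sema7a at -0.53 and Slit2 at 0.35, and 47 of the 61 lie within 0.25 of 0.

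The start regions of the 3 genes that passed are shown as the 250 bases before the start site in RefSeq's table of promoters (GRCm38.p6, plus strand), because they are the members on which the result turns. Capitals mark matches on either strand to an ETS core, a hypoxia response core or the TATA box. The ETS core was searched as CCGGAAG and as CAGGAAG, and in the shifted forms written ACCGGAA for the former and written ACAGGAA for the latter, which overlap them. The hypoxia response core was searched as ACGTG and, in its other common form, as GCGTG, and the TATA box as the word TATAAA.
Robo4, chr9:37401722-37401971: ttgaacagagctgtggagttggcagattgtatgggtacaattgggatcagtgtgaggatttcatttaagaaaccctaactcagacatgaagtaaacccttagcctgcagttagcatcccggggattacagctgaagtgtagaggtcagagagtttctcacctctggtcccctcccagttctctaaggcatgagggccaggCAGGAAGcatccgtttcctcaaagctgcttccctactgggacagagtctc
Sema7a, chr9:57939862-57940111: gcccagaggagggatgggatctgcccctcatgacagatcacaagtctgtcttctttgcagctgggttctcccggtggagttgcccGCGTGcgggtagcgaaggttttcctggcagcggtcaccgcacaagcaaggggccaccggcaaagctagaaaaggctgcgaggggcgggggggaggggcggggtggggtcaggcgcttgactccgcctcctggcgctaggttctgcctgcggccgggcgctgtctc
Slit2, chr5:47982905-47983154: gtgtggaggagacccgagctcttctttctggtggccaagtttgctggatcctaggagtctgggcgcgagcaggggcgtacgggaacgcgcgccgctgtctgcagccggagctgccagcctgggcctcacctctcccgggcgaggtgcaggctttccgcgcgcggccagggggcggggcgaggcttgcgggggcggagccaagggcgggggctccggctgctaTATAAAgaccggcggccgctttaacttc
The Robo4 window held 1 ETS core match, CAGGAAG, at 37401922 to 37401928 on chromosome 9, which lies 50 bases before the start used by the table. The Sema7a window held 1 hypoxia response core, GCGTG, and the Slit2 window held 1 TATA box. RefSeq lets each of these genes begin further upstream in longer transcripts, at 37401902 for Robo4, 57939596 for Sema7a and 47981291 for Slit2, so the whole Sema7a and Slit2 windows lie inside a longer gene model. For Robo4 this holds for the end of the window, which includes the marked ETS match. Promoters were found for 53 of the 61 members. An ETS core was in 9 of these 53 (17.0%) and in 21.3% of all 27025 promoters, the hypoxia core in 25 (47.2%) against 38.6%, and the TATA box in 2 (3.77%) against 13.0%. A SOX word was in 11 (20.8%) against 30.9%, and a GATA word in 4 (7.55%) against 17.0%. The GC content was 49.6% for Robo4, 66.4% for Sema7a and 69.6% for Slit2, with a median of 64.8% over the members and 52.0% over all promoters. These matches are letters in a window and say nothing on whether a factor binds there.

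Robo4, the Robo receptor typical of endothelial cells, was at 50.1% of its control level. Robo4 (Entrez 74144, chromosome 9, 37401902 to 37414023) had 25.9, 22.1 and 18.8 CPM in the controls, in the order of their numbers, against 10.6, 11.4 and 11.5 CPM in the ecko libraries, from 332 to 449 counts and 183 to 206 counts per library. Every ecko library lay below every control, and the controls were spread more widely than the ecko libraries. The mean was 22.3 ± 3.55 CPM across controls against 11.2 ± 0.498 CPM across ecko (SD, n = 3 each), a log2 fold change of -0.996 (SE 0.12, adjusted p from edgeR = 0.00553). Robo4 had the largest fall of the members and ranked 61 from the lowest among all genes tested by log2 fold change. It stayed past the threshold in all 15 alternative fits, with estimates from -1.13 to -0.87 and edgeR, DESeq2 or limma adjusted p from 1.12e-08 to 0.0377. Its neighbour Robo3 (37416045 to 37433436) had 0 to 2 counts in each library.

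Endothelial marker genes were lower in the same libraries. Of 18 endothelial markers, a list without Kdr and without any guidance gene, 9 fell and none rose, and none of them was at 0 in a library. Their summed level was 874 to 935 CPM across controls against 606 to 669 CPM across ecko. Of the 18, only Tie1 had a larger fall than Robo4, at -1.07 (SE 0.08), and Cdh5, Cd93 and Sox18 were each at -0.93. Robo4 was set against the mean log2 CPM of the list in each library, which gave -0.27, -0.48 and -0.63 for the controls against -0.90, -0.76 and -0.81 for the ecko libraries. The relative difference was thus -0.36 log2 units, with no overlap between the groups (exact permutation test, two-sided, p = 0.1, the smallest that 3 against 3 allows). It was -0.21 against the median of the list and -0.23 against Pecam1 and Cdh5 alone. In whole skin, fewer endothelial cells and less RNA per endothelial cell cannot be told apart.

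**Figure D2:**
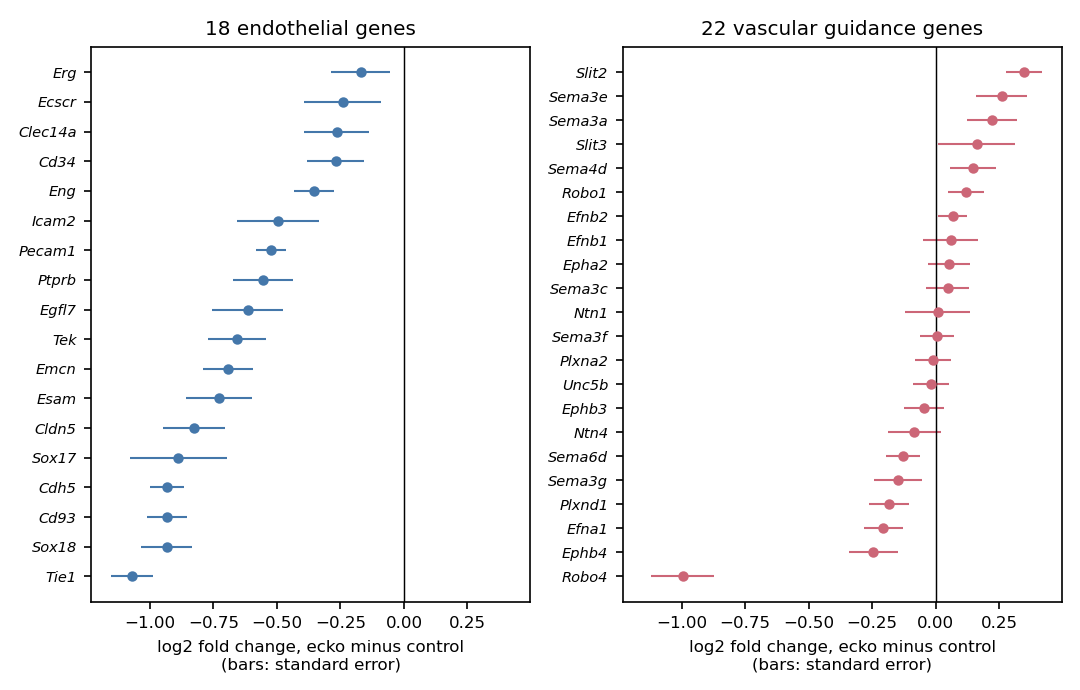
Log2 fold change (ecko minus control, horizontal axes, bars for the standard error) of 18 endothelial marker genes on the left and of 22 guidance genes with known roles in vessels on the right. All 18 endothelial genes lie below 0, from -0.17 for Erg to -1.07 for Tie1, while Robo4 at -0.996 is the only one of the 22 guidance genes below -0.25.

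Of the other 5 Slit and Robo genes, Slit2 passed, in the opposite direction to Robo4. Slit2, a secreted ligand of ROBO1 and ROBO2, rose to 127% of its control level. Slit2 (Entrez 20563, chromosome 5, 47981291 to 48307735) had 32.5, 33.7 and 35.3 CPM across controls against 41.3, 41.4 and 46.5 CPM across ecko. All ecko libraries lay above all controls, and the female ecko library was the highest. The mean rose from 33.8 ± 1.38 to 43.1 ± 2.99 CPM (SD, n = 3 each), a log2 fold change of 0.35 (SE 0.07, adjusted p from edgeR = 0.0450). This call was close to the threshold and was lost in 9 of 15 alternative fits, among them the fit to the male libraries (adjusted p from edgeR = 0.122), the replicate block (0.0557) and the fits without control 1 (0.111), control 2 (0.122), ecko 1 (0.125), ecko 2 (0.136) or ecko 3 (0.154). The log2 fold change of Slit2 stayed between 0.29 and 0.38 in all of them.

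Robo2, a Slit receptor of nerves and mesenchyme, had 28.6, 31.8 and 28.4 CPM across controls against 31.7, 32.6 and 37.3 CPM across ecko (log2 fold change 0.19, SE 0.08, adjusted p from edgeR = 0.306). Robo1, which is found on endothelial and many other cells, had a log2 fold change of 0.12 (SE 0.07, adjusted p from edgeR = 0.478). The values of both overlapped between the groups. Slit3, the most abundant gene of the Slit and Robo families per exon length, varied among controls from 47.7 CPM in control 1 to 79.6 CPM in control 3 and lay between 67.7 and 78.2 CPM across ecko (log2 fold change 0.16, SE 0.15). Its estimate was -0.01 without control 1 and 0.34 without control 3. Slit1 was weakly counted, at 1.73 ± 0.201 CPM across controls against 1.52 ± 0.232 CPM across ecko (SD, n = 3 each). Of the marker lists for other cells, those of macrophages (329 to 543 CPM summed over 7 genes in controls, 549 to 570 in ecko), melanocytes (6 genes, 142 to 154 against 165 to 208) and differentiated keratinocytes (8 genes, 21208 to 23691 against 24017 to 26885) were higher in every ecko library, with 1 gene called in all, and no marker of these lists was at 0. Their part in the rise of Slit2 was not tested. Fibroblast, Schwann cell and basal keratinocyte sums overlapped between the groups.

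**Figure D3:**
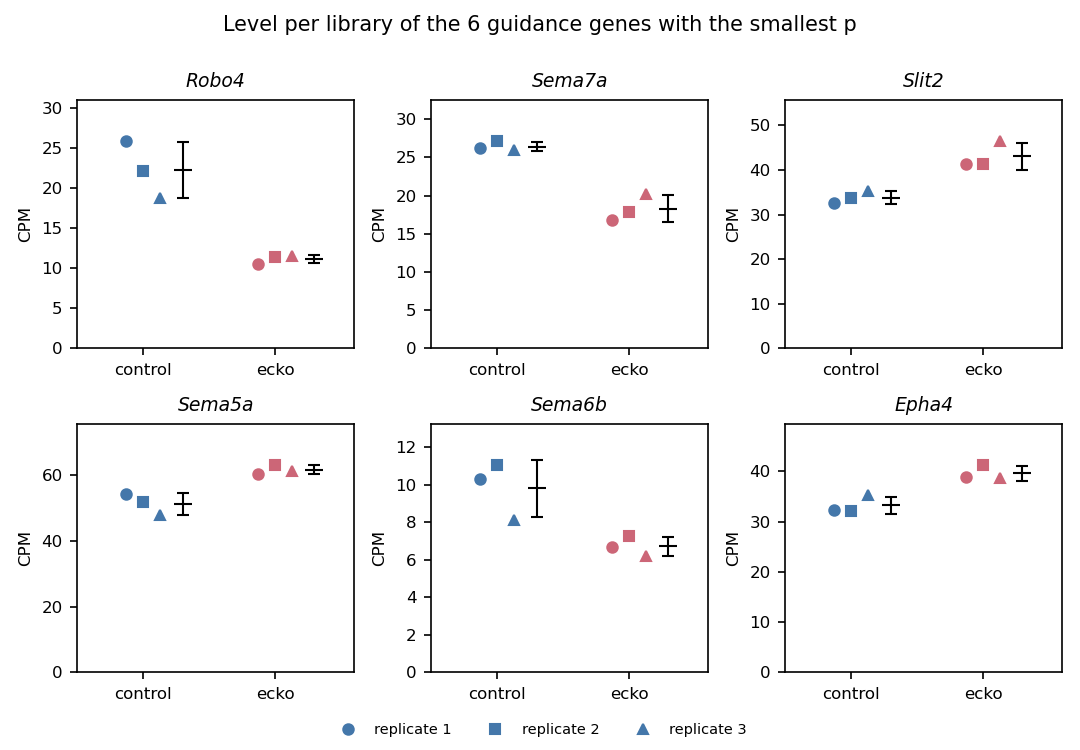
CPM (vertical axes, from 0) per library of the 6 guidance genes with the smallest p, in controls (blue) and ecko (red), with symbols for the replicate number and black bars for the mean and SD of 3 libraries. The 3 upper genes passed the test (Robo4, Sema7a and Slit2), the 3 lower genes did not, and the groups do not overlap in any of the 6. Picking genes by a small p favours groups that do not overlap, and 21% of all genes tested have such groups.

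Among the semaphorins that stay on the membrane, Sema7a fell. It encodes a semaphorin tethered by a lipid anchor, which binds integrins and plexin C1 and is best known from immune and nerve cells. Sema7a (Entrez 20361, chromosome 9, 57939596 to 57962865) had 26.2, 27.1 and 25.9 CPM across controls against 16.8, 17.8 and 20.2 CPM across ecko. The controls lay within a narrow range and every ecko library lay below it. The mean fell from 26.4 ± 0.645 to 18.3 ± 1.77 CPM (SD, n = 3 each), to 69.2% of the control level (log2 fold change -0.53, SE 0.09, adjusted p from edgeR = 0.0222). The call was kept in 11 of 15 alternative fits and lost without control 1 (adjusted p from edgeR = 0.0537), control 2 (0.0744), ecko 1 (0.0896) or ecko 2 (0.102), with estimates from -0.62 to -0.47 in all 15.

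Relative to the endothelial list Sema7a differed by 0.07 log2 units, with overlapping groups (exact permutation p = 0.5). Besides the endothelial markers, the summed markers of lymphatic endothelium (7 genes, 308 to 382 CPM in controls, 227 to 246 in ecko, 4 fell), mural cells (10 genes, 755 to 799 against 595 to 622, 3 fell), fat cells (7 genes, 401 to 478 against 252 to 322, 3 fell) and skeletal muscle (7 genes, 4743 to 7066 against 4018 to 4523, 2 fell) were lower in every ecko library, and none of these markers was at 0. The sum of 7 markers of neuron cell bodies was also lower, at 13.1 to 15.2 CPM against 9.29 to 10.6. Only 2 of the 7 were tested, of which Stmn2 fell (-0.68, adjusted p from edgeR = 0.0318) and Tubb3 did not pass (-0.17, adjusted p from edgeR = 0.786). Elavl3, Elavl4, Snap25 and Rbfox3 were at 0 in at least 1 library. Schwann cell and nerve markers overlapped between the groups (10 genes, 963 to 1073 CPM in controls, 960 to 1041 in ecko). Of the immune lists, the macrophage sum was higher in every ecko library, and T cell sums overlapped (6 genes, 26.9 to 30.8 CPM in controls, 29.7 to 31.8 in ecko). The part of any of these cells in the fall of Sema7a was not tested. Plxnc1, the gene of its plexin receptor, had 12.6 ± 1.27 CPM across controls against 14.1 ± 1.25 CPM across ecko (SD, n = 3 each; log2 fold change 0.17, SE 0.11, adjusted p from edgeR = 0.525).

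The other membrane semaphorins did not pass, although 7 of these 12 had groups that did not overlap, where 21% of all genes tested did not. Sema5a, whose product can attract or repel axons, had 54.2, 51.8 and 47.7 CPM across controls against 60.4, 63.1 and 61.3 CPM across ecko (log2 fold change 0.27, SE 0.07, adjusted p from edgeR = 0.0921). Its close relative Sema5b, at 1.81 CPM across controls against 1.11 in ecko, had -0.70 (SE 0.23, adjusted p from edgeR = 0.187), so the values of this pair lay on opposite sides of 0. Sema6b, a transmembrane semaphorin that binds A-type plexins, had 10.3, 11.0 and 8.11 CPM across controls against 6.66, 7.25 and 6.21 CPM across ecko (-0.55, SE 0.14, adjusted p from edgeR = 0.0951), and it passed in 1 of 15 alternative fits, without control 3 (adjusted p from edgeR = 0.0255).

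All 4 class 6 semaphorins lay below 0, with Sema6c at -0.27 (SE 0.10), Sema6d at -0.13 (SE 0.07) and Sema6a at -0.11 (SE 0.12) beside Sema6b. This held in 13 of 15 alternative fits, which reuse the same libraries, and in the male libraries alone or without control 3 there were 3 of 4. Over all 14866 genes tested, 7362 lay above 0 and 7504 below. Of the 6 class 4 semaphorins 5 lay above 0, with Sema4g at 0.24 (SE 0.10), Sema4d, which acts through plexin B receptors, at 0.15 (SE 0.09) and Sema4a, the most abundant of the membrane semaphorins per exon length, also at 0.15 (SE 0.09). Sema4b had 0.14 (SE 0.08) and Sema4c -0.01 (SE 0.11). Sema4f had the highest log2 fold change of all members, 0.59 (SE 0.27, adjusted p from edgeR = 0.331), from a low level of 2.09 ± 0.764 CPM across controls against 3.15 ± 0.428 CPM across ecko (SD, n = 3 each).

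None of the 7 class 3 semaphorins, the secreted class, passed, and their values lay between -0.15 and 0.26. Sema3e had 34.1, 34.2 and 31.9 CPM across controls against 34.8, 38.6 and 46.6 CPM across ecko (log2 fold change 0.26, SE 0.10, adjusted p from edgeR = 0.260). The groups did not overlap, but the lowest ecko library lay just above the highest control, and without ecko 3, the highest, the estimate was 0.14. Sema3a, a repellent of sensory axons that acts through neuropilin-1, had 0.22 (SE 0.10, adjusted p from edgeR = 0.313). Sema3g, which is made by arterial endothelium, had 31.9, 28.2 and 25.3 CPM across controls against 26.2, 24.2 and 26.7 CPM across ecko (-0.15, SE 0.10, adjusted p from edgeR = 0.515). The estimate for Sema3g was -0.06 without control 1. Sema3b had -0.14 (SE 0.07). The 3 most abundant of the class per exon length lay near 0, with Sema3f at 0.01 (SE 0.07), Sema3c at 0.05 (SE 0.08) and Sema3d at -0.03 (SE 0.11).

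The plexins, the receptors of the semaphorins, lay within 0.25 log2 units of 0 in all 9 cases, and none passed. Plxnd1, the receptor of SEMA3E and the plexin best known from endothelium, had 71.3, 83.8 and 87.9 CPM across controls against 73.1, 69.1 and 71.9 CPM across ecko (log2 fold change -0.18, SE 0.08, adjusted p from edgeR = 0.313). Control 1 lay among the ecko libraries, so the groups overlapped, and without control 3 the estimate was -0.12. Plxnb2, the most abundant plexin per exon length, had 34.5 ± 2.30 CPM per kb of exon in controls and 36.2 ± 1.16 in ecko (SD, n = 3 each; log2 fold change 0.07, SE 0.07). Plxna1, Plxna2, Plxna3, Plxna4 and Plxnb1 lay between -0.01 and 0.05, and Plxnb3 was at -0.17 (SE 0.17).

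**Figure D4:**
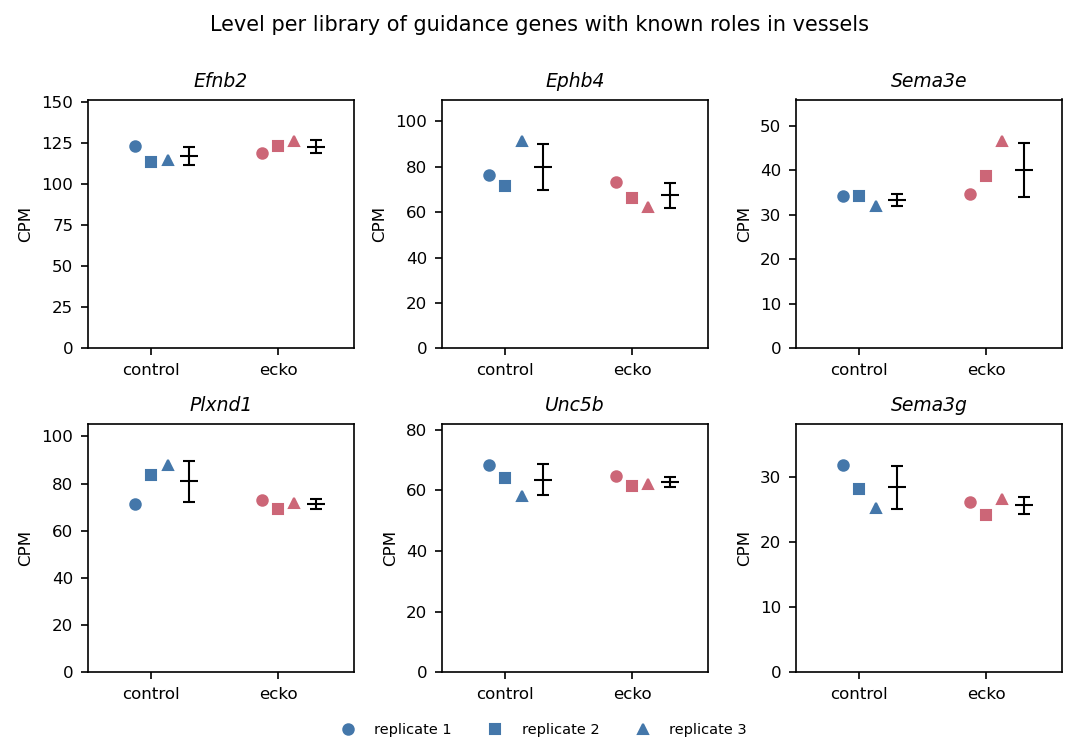
CPM (vertical axes, from 0) per library of 6 guidance genes with known roles in vessels, in controls (blue) and ecko (red), with symbols for the replicate number and black bars for the mean and SD of 3 libraries. Among these, only Sema3e has groups that do not overlap, and none passed the test.

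None of the 8 ephrins and none of the 11 Eph receptors passed. Efnb2, the arterial ephrin, had 123, 113 and 115 CPM across controls against 119, 124 and 126 CPM across ecko (log2 fold change 0.07, SE 0.06, adjusted p from edgeR = 0.650). Its venous receptor gene Ephb4 had 76.4, 71.6 and 91.3 CPM across controls against 73.4, 66.3 and 62.3 CPM across ecko (-0.24, SE 0.10, adjusted p from edgeR = 0.269), with ecko 1 above control 2. The estimate for Ephb4 was -0.14 without control 3, the highest library, and -0.08 in the male libraries. Ephb4 was the only one of the 5 B-type receptors under 0.05 before adjustment in edgeR, and the others (Ephb1, Ephb2, Ephb3 and Ephb6) lay between -0.09 and 0.00.

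All 6 A-type Eph receptors lay above 0, with a median of 0.17, where 7362 of all 14866 genes tested did. All 6 lay above 0 in 12 of 15 alternative fits, which reuse the same libraries and are not independent. No test was run on the signs of a family. Without control 1 this was 4 of 6 and without ecko 3 it was 5, and the filter of 1 CPM in 3 libraries kept 5, all above 0. Epha4, which is active in nerves, dermis and hair follicles, had 32.3, 32.2 and 35.3 CPM across controls against 38.9, 41.3 and 38.7 CPM across ecko (0.25, SE 0.07, adjusted p from edgeR = 0.114), the only A-type receptor whose groups did not overlap. Epha3 had 0.23 (SE 0.11), the weakly counted Epha7 and Epha10 had 0.11 (SE 0.19) and 0.23 (SE 0.45), and the epidermal receptor genes Epha1 and Epha2 had 0.11 (SE 0.06) and 0.05 (SE 0.08). Of the ligands, Efna5 had 58.5, 61.8 and 63.8 CPM across controls against 68.9, 66.0 and 73.4 CPM across ecko (0.18, SE 0.07, adjusted p from edgeR = 0.234). Efna1, a ligand of EPHA2 that endothelial and epidermal cells make, had 62.6, 53.8 and 51.7 CPM across controls against 48.4, 47.9 and 49.6 CPM across ecko (-0.21, SE 0.08, adjusted p from edgeR = 0.254), and without control 1 the estimate was -0.11. Efna3 and Efna4 had -0.13 (SE 0.07) and -0.22 (SE 0.10), and Efnb1, Efna2 and Efnb3 had 0.06 (SE 0.11), 0.07 (SE 0.17) and -0.09 (SE 0.17).

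Netrins and their receptors did not pass either. Ntn1, the founding netrin, was the most abundant of the 4 per exon length and had 77.9, 109 and 120 CPM across controls against 101, 103 and 105 CPM across ecko (log2 fold change 0.01, SE 0.13), so that the ecko libraries lay within the wide range of the controls. Ntn4, a netrin of basement membranes, had -0.08 (SE 0.10), and Ntn3 and Ntn5, both weakly counted, had -0.34 (SE 0.18) and -0.27 (SE 0.23). Unc5b, the endothelial netrin receptor and a partner of ROBO4, had 68.4, 64.0 and 58.2 CPM across controls against 64.6, 61.5 and 62.2 CPM across ecko (-0.02, SE 0.07, adjusted p from edgeR = 0.941). Relative to the endothelial list Unc5b was 0.58 log2 units higher in ecko, without overlap, but the list itself changed by -0.60. Any gene with an unaltered level in skin is higher relative to the list by construction. Unc5c had 8.95, 12.3 and 9.02 CPM across controls against 8.11, 8.52 and 7.27 CPM across ecko (-0.34, SE 0.14, adjusted p from edgeR = 0.302), and Unc5a had -0.34 (SE 0.18). Without control 2, the highest library, the estimate for Unc5c was -0.17.

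Of the 22 guidance genes with known roles in vessels, Robo4 fell and Slit2 rose, and the median was 0.01 against -0.64 for the 18 endothelial markers. Relative to the mean of the endothelial list, 20 of 23 genes compared (the 22 and Sema7a) were higher in every ecko library than in every control, Robo4 was lower, and Ephb4 and Sema7a overlapped. Each of the 21 that did not overlap had an exact permutation p of 0.1, the smallest possible, and a Benjamini-Hochberg adjusted value of 0.11 over the 23. The list itself was 0.60 log2 units lower in ecko, so a gene with an unaltered level in skin is higher relative to it by construction.

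Co-receptors and signalling partners were described from a separate list of 78 genes, of which 74 were tested. Of these, 2 fell and 1 rose, a share of 4.05% against 1.76% of all genes tested (1.08% lower and 0.686% higher), and the median log2 fold change was -0.02. Arhgef15, an exchange factor of the ephexin family that acts below Eph receptors and is typical of vascular cells, had 12.7, 13.4 and 13.3 CPM across controls against 6.66, 6.09 and 6.09 CPM across ecko. This was a fall to 47.8% of the control level (log2 fold change -1.07, SE 0.10, adjusted p from edgeR = 0.00113), which passed in all 15 alternative fits. Sh2d3c, an adaptor that binds Eph receptors, had 12.8, 13.2 and 11.2 CPM across controls against 8.0, 7.97 and 7.55 CPM across ecko, and fell by 0.66 on the log2 scale (SE 0.10, adjusted p from edgeR = 0.0169). Its call was lost without control 2 (adjusted p from edgeR = 0.0623), ecko 1 (0.0705), ecko 2 (0.0851) or ecko 3 (0.0657). The summed endothelial markers given above were lower in the same libraries, and their part in the falls of Arhgef15 and Sh2d3c was not tested.

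Vav3, an exchange factor that Eph receptors recruit, rose from 58.3, 54.8 and 56.4 CPM to 73.0, 68.5 and 67.1 CPM (log2 fold change 0.30, SE 0.06, adjusted p from edgeR = 0.0454). The call of Vav3 was lost in 9 of 15 alternative fits, including each that left out a library (adjusted p from edgeR of 0.0591 without control 3 to 0.180 without ecko 1). The co-receptor genes did not pass. Nrp1, which class 3 semaphorins share with VEGF-A, had 69.8, 88.3 and 78.2 CPM across controls against 62.5, 75.2 and 80.8 CPM across ecko (-0.11, SE 0.11, adjusted p from edgeR = 0.690). Nrp2 had -0.05 (SE 0.07), and Neo1, a netrin receptor related to DCC, had -0.08 (SE 0.06).

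Levels of the 61 genes were compared per exon length, in CPM per kb of exon. In controls they ran from 0.296 ± 0.0344 for Slit1 to 56.5 ± 3.14 for the ephrin gene Efna3 (SD, n = 3 each). The highest gene of each family was Efna3 among ephrins, Ephb6 among Eph receptors (40.4 ± 4.03, with Epha1 at 39.5 ± 2.18 within its spread), Plxnb2 among plexins, Sema3f (29.1 ± 0.544) and Sema4a (20.9 ± 1.96) among semaphorins, Ntn1 (16.8 ± 3.59) among netrins, Slit3 (12.4 ± 3.06) among Slits and Robos, and Unc5b (10.8 ± 0.870) among netrin receptors. Robo4 stood at 4.36 ± 0.695 in controls, close to Robo1 at 4.50 ± 0.278, and at 2.19 ± 0.0974 in ecko, below Robo1 at 4.88 ± 0.242 and Robo2 at 3.80 ± 0.335. Slit2 stood at 3.38 ± 0.138 in controls and 4.30 ± 0.298 in ecko. Exons of 12 members share bases with another annotated gene on either strand, and without strand information those reads cannot be told apart. Efna3 (with Gm15998) and Epha1 (with Zyx) are among the 12, so their levels may include reads of these genes. Robo4, Sema7a and Slit2 are not among the 12.

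**Figure D5:**
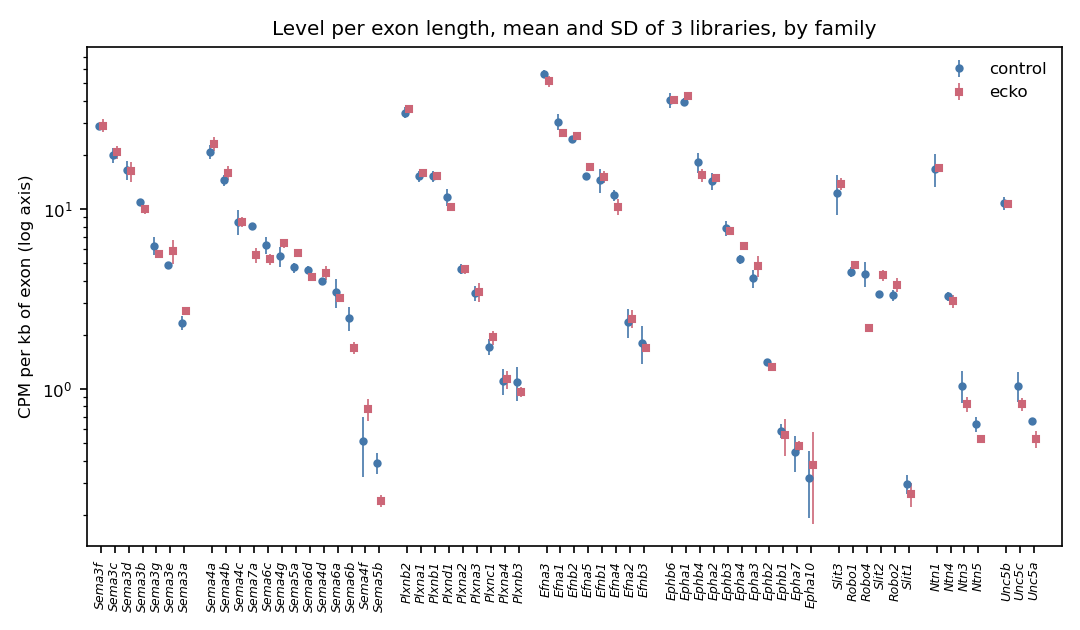
Level per exon length (CPM per kb, log axis) of the 61 guidance genes by family, as the mean of 3 control (blue circles) and 3 ecko libraries (red squares) with bars for the SD. Levels run from 0.296 for Slit1 to 56.5 for Efna3 in controls, and the order of the Slit and Robo genes differs between the groups through Robo4.

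The members also differed among libraries of the same group. The median coefficient of variation of the members was 9.66% among controls and 6.86% among ecko libraries, against 8.07% and 6.34% over all genes tested. The female control 3 held the highest value of 20 of the 61 members (32.8%), where it held the highest value of 17.5% of all genes, and control 1 held the lowest of 17 (27.9%, against 21.2%). Slit3, Ntn1 and Plxnd1, given above, were lowest in control 1 and highest in control 3 among the controls. In the 3 ecko libraries these 3 genes lay closer together.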

How the data were processed

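Poly(A) RNA of snap-frozen ear skin was captured on oligo(dT) beads, fragmented, copied from random primers and amplified by PCR, per the labels' protocols. The authors deposited expected counts (estimated read counts) per gene and library, unscaled as judged from their unequal totals, and 10.45% of the values were not whole. HISAT2 2.2.1, Bowtie2 2.4.5, RSEM 1.3.1 and GRCm38.p6 are named in the submitters' processing notes without their roles. RSEM divides reads shared by similar genes by estimate.

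Expected counts were rounded, filtered with filterByExpr (minimum count 10), scaled by TMM and tested with the edgeR 4.0.16 quasi-likelihood test (R 4.3.3), with genotype as the only term over all 6 libraries and Benjamini-Hochberg adjustment over 14866 genes. The SE was taken as |log2 fold change| over the root of the F statistic. The level relative to endothelial markers used log2(CPM + 0.5). Coordinates are from RefSeq (GRCm38.p6) and exon lengths from GENCODE (GRCm38). A library with 500 or more reads of 4 Y-linked genes was taken as male. No libraries were duplicates, with pairs in a group 4.89 to 14.8 times as variable as sampling alone. Simulated data held changes larger than those of Slit2 and Vav3, in genes above a count minimum, so recovery of changes of their size was not tested. On these data the test recovered most of the changed genes but made more false calls than its threshold allows. This bears most on calls close to the threshold, such as Slit2 and Vav3. It also bears on Sema7a and Sh2d3c, whose calls were each lost in 4 of 15 alternative fits.

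Members, lists, motifs and tests were chosen with earlier results of these data known. Genes named were all that passed, those with an unadjusted p under 0.05, 22 members with known roles in vessels, the most abundant of each family per exon length, and the co-receptor genes; the other members were given for completeness, and Sema4f and single endothelial markers were singled out after their values were seen. Alternatives were other scaling factors, DESeq2 1.42.0, limma 3.58.1 (voom), other filters, a replicate block, a sex term, the male libraries alone, each library left out, and a threshold of 0.1.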

Additional observations from a re-analysis of the deposited data

How the results depend on the processing

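Robo4, Arhgef15 and Kdr kept their direction and their call in all 15 fits, with Kdr between -3.77 and -3.39. Counts of members that rose went from 1 to 0 with upper-quartile factors, limma-voom, the replicate block and the male libraries, to 2 at a threshold of 0.1, and lay between 0 and 1 when a library was left out. Counts of members that fell lay between 1 and 3 when a library was left out. For partner genes the count that rose was 0 with upper-quartile factors, the replicate block, the male libraries and every library left out, and the count that fell lay between 1 and 2 over the libraries left out. The median of the members lay between -0.0518 (without control 2) and 0.0697 (without control 3). Over all genes, 102 rose and 160 fell in the main test, 195 rose with DESeq2, 63 with the replicate block and 182 at a threshold of 0.1, and 91 fell in the male libraries and 269 at that threshold. When a library was left out, 22 to 165 rose and 34 to 242 fell.

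The cause of these shifts was not tested. Fits with a library left out have fewer samples. Without control 3 more genes were called than in the main test (165 rose and 242 fell), and every other such fit gave fewer of both. The number of genes that did not overlap relative to the endothelial list was 21 to 23 in every setting. For the replicate numbers, deviations of same-numbered libraries correlated at 0.06, 0.02 and 0.19 over genes, and control 1 correlated more with ecko 2 (0.08) than with ecko 1 (0.06). Every pair of the same sex correlated above 0, from 0.02 to 0.19, and every pair of opposite sex below 0, from -0.12 to -0.09. Deviations were taken from the mean of each group and sum to 0 within it. The values of the pairs are therefore tied to each other, and a positive value brings negative ones with it. An effect of sex cannot be read from this pattern. Control 3 and ecko 3, both female, had the highest value, and 2 of the 3 same-numbered values were under 0.1. Because the values are tied, they cannot decide whether the replicate numbers stand for pairs. The labels give no pairing, and the main test took none. The replicate block ended the calls of Slit2 (adjusted p from edgeR = 0.0557) and Vav3 (0.0630). With 3 libraries per group, differences of the size seen for most members could not be resolved, and a gene that did not pass is not shown to be equal in the groups.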
